A study of Mus musculus with 4 samples.

Results

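Keratins 5, 14, 15, 1 and 10 are the keratins that define the layers of the epidermis, and the 5 genes that encode them (Krt5, Krt14, Krt15, Krt1 and Krt10) are described here out of 12393 genes that a probe set of the array names alone. They were chosen by symbol, from the platform annotation, and 4 of the 5 reached the level filter: their highest value on any array was at or above 20.04, the median intensity of all values deposited. The exception was Krt15. RNA came from primary keratinocytes of mouse tail skin (C57BL/6), and all mice carried a floxed Prdm1 gene, which encodes the transcriptional repressor Blimp-1. The CKO cells also had CreER, a Cre recombinase that 4-hydroxytamoxifen (4OHT) activates, and the control cells did not. CKO 4OHT cells and control 4OHT cells received the drug from day 1 to day 3 of culture, CKO EtOH cells and control EtOH cells received its solvent ethanol, and all were collected on day 5 from serum-free medium on collagen. Each group had 1 array of the Mouse Expression Array 430A, so no difference could be tested and no replicate error exists. In place of a test, each value is set beside the differences of all 7461 genes that reached the filter. The promoter that drives CreER and the number of mice per culture are not given in the labels, and CKO and control cells came from different mice.

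Keratins are the intermediate filament proteins of epithelial cells. A filament forms only from a pair of a type I (acidic) and a type II (basic) chain, so the genes work in partners. Basal cells, which divide and sit on the basement membrane, make keratin 5 (type II) with keratin 14 (type I). When a keratinocyte leaves the basal layer it starts to make keratin 1 (type II) with keratin 10 (type I), which is the classical sign of commitment to differentiation. Keratin 15 is a further type I chain of basal cells and is known as a marker of stem cells in the hair follicle bulge. In people, mutations in the basal pair cause skin that blisters in the basal layer, and mutations in the suprabasal pair cause blistering with thickened skin.

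The 5 keratins did not move together. Krt1 was far lower in CKO 4OHT cells than in any other culture, while its partner Krt10 lay within the range of the other arrays. Krt5 and the bright probe sets of Krt14 were almost the same on all 4 arrays, and Krt15 stayed dim on all of them. Of the 5 genes, 1 (Krt1) was at least 2-fold lower in CKO 4OHT than in CKO EtOH and none was at least 2-fold higher, where 1.86% of all measured genes were lower and 1.78% higher by that much. Against control 4OHT the count was again 1 lower (Krt1) and none higher, beside 2.24% and 1.45% of all measured genes. These 2 comparisons share the CKO 4OHT array. Prdm1 itself stood at 6.43 in CKO 4OHT, 17.0 in CKO EtOH, 52.4 in control 4OHT and 20.7 in control EtOH, and which part of the gene its probe set and the deletion cover is not given in the labels.

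**Figure D1:**
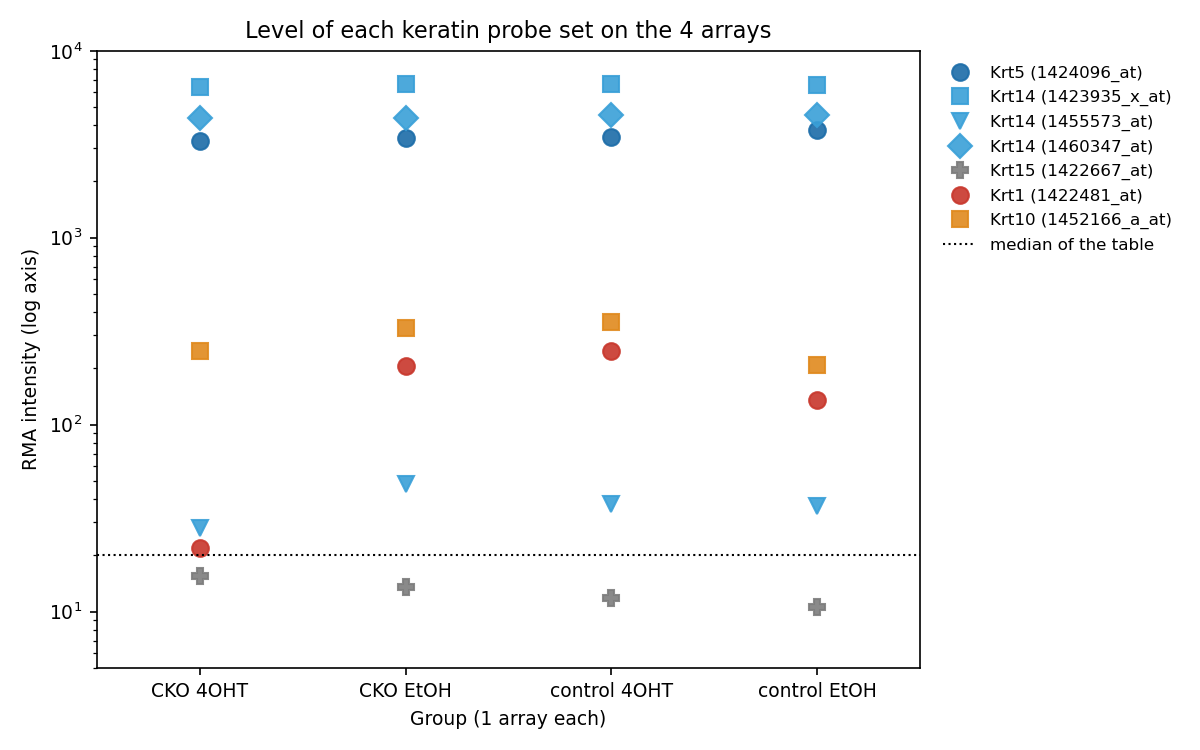
Intensity (log axis) of the 7 probe sets that name 1 of the 5 keratins alone, on the 4 arrays, 1 point per array. Krt1 stands at 21.8 in CKO 4OHT and between 136 and 246 on the other arrays, while Krt5 and the bright Krt14 probe sets form flat rows between 3298 and 6663.

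Krt1 was read by a single probe set (1422481_at). Its intensity was 21.8 in CKO 4OHT, 205 in CKO EtOH, 246 in control 4OHT and 136 in control EtOH. CKO 4OHT was thus the lowest array, 6.24-fold below the nearest of the others, and the order of the other 3 ran from control 4OHT down to CKO EtOH and control EtOH. The CKO 4OHT value stood near the middle of its array (percentile 51.8), whereas the probe set stood at percentile 84.5 to 91.4 on the other arrays. Values this close to the median of the table have an unknown part of background, so the size of the difference is less certain than its direction.

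On the log2 scale the Krt1 difference was -3.23 for CKO 4OHT over CKO EtOH, or 9.39-fold lower. Among all measured genes 2, Krt1 included, were at least that far down. For CKO 4OHT over control 4OHT it was -3.50, or 11.3-fold lower, and 5 genes including Krt1 were at least that far down. With 16 intensity units added to every value, which weighs down dim values, these differences became -2.55 and -2.79. In CKO 4OHT, 81 genes (1.09% of the measured genes) were at least 2-fold under the lowest of the other 3 arrays, and of the 5 keratins only Krt1 was one of them. None of the 5 was among the 56 genes (0.751%) that were 2-fold or more over the highest of the others.

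Krt10, the partner of Krt1, was read by 1 probe set (1452166_a_at). Its intensity was 249 in CKO 4OHT, 328 in CKO EtOH, 352 in control 4OHT and 209 in control EtOH. CKO 4OHT was the second lowest array and lay above control EtOH. The log2 difference was -0.40 for CKO 4OHT over CKO EtOH, a size that 22.2% of the measured genes reached or passed, and -0.50 for CKO 4OHT over control 4OHT, which 17.1% reached or passed. The log2 difference of Krt1 minus that of Krt10 was -2.83 in the first comparison and -2.996 in the second. The type II and the type I chain of the suprabasal pair were therefore unequal in their differences between these arrays.

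The basal pair was nearly flat. Krt5 (1424096_at) had an intensity of 3298 in CKO 4OHT, 3432 in CKO EtOH, 3455 in control 4OHT and 3774 in control EtOH. The highest array was 1.14-fold above the lowest. Krt14 by its brightest probe set (1423935_x_at) had 6437 in CKO 4OHT, 6624 in CKO EtOH, 6663 in control 4OHT and 6587 in control EtOH, a span of 1.04-fold. A second bright Krt14 probe set (1460347_at) had 4393, 4353, 4517 and 4512 on those arrays in the same order, also a span of 1.04-fold. For CKO 4OHT over CKO EtOH the log2 differences were -0.06 for Krt5 and -0.04 and 0.01 for the bright Krt14 probe sets, and 83.5% and 88.1% of all measured genes differed by at least as much as Krt5 and Krt14.

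These probe sets lie at the bright end of the arrays, whose highest values were between 6888 and 7167. Among the 65 genes with a geometric mean of at least 2000, the median size of the log2 difference was 0.10 for CKO 4OHT over CKO EtOH, against 0.20 over all measured genes. Of those 65 genes 1 was past 2-fold, Hopx, at a size of 1.15. How far bright signals are compressed on these arrays was not tested.

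Another Krt14 probe set read the gene differently. By 1455573_at the gene stood at 28.1 in CKO 4OHT, 48.3 in CKO EtOH, 37.5 in control 4OHT and 36.9 in control EtOH. It was lowest in CKO 4OHT, with a log2 difference of -0.78 to CKO EtOH and -0.42 to control 4OHT. The annotation gives it no accession, so which transcript it reads is uncertain. A probe set annotated to both Krt14 and Krt17 (1427841_at) was between 11.5 and 13.4 and is not used for either gene.

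Krt15 (1422667_at), the keratin of basal and bulge cells, had an intensity of 15.5 in CKO 4OHT, 13.5 in CKO EtOH, 11.8 in control 4OHT and 10.6 in control EtOH. All values lay under the median of the table. CKO 4OHT was the highest array, by 0.19 over CKO EtOH and 0.39 over control 4OHT on the log2 scale, but at this level the array does not show whether the gene is detected. Among 9 measured markers of hair follicle stem cells and the outer root sheath (of 17 listed), Tbx1, a transcription factor, was lower in CKO 4OHT past 2-fold (68.0 in CKO 4OHT, 173 in CKO EtOH, 210 in control 4OHT and 158 in control EtOH). None was higher past 2-fold, and the medians of the list were 0.06 for CKO 4OHT over CKO EtOH and 0.10 for CKO 4OHT over control 4OHT.

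**Figure D2:**
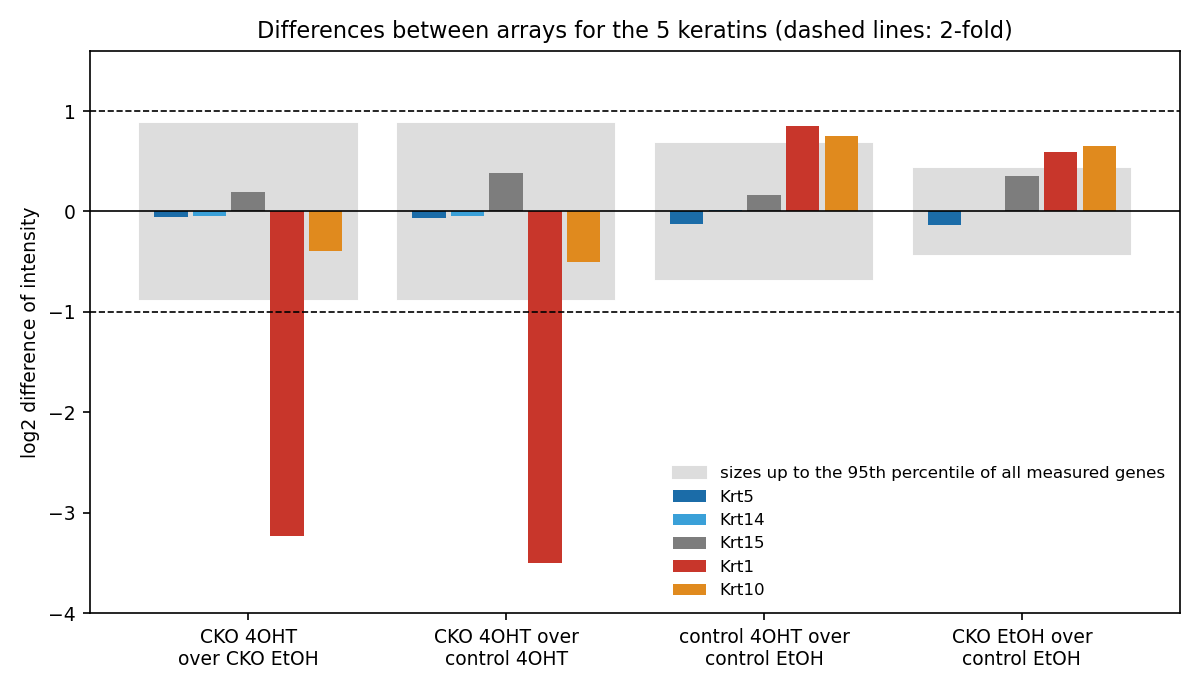
Log2 difference of intensity (vertical axis) for the 5 keratins in the 4 comparisons, 1 bar per gene, with each gene read by its brightest probe set. Grey boxes span the sizes up to the 95th percentile of all measured genes in that comparison, and dashed lines mark 2-fold; the Krt1 bars of -3.23 and -3.50 are those that cross a dashed line.

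Control 4OHT over control EtOH gives the drug in cells that lack CreER. Here both suprabasal keratins were higher with the drug. Krt1 differed by 0.86 on the log2 scale (246 in control 4OHT and 136 in control EtOH, 1.81-fold) and Krt10 by 0.75 (352 in control 4OHT and 209 in control EtOH, 1.69-fold). Neither reached 2-fold, so none of the 5 counted as higher or lower, beside 1.27% and 0.241% of all measured genes. Sizes at least this large were found for 2.24% of the measured genes (Krt1) and 3.42% (Krt10). Krt5 differed by -0.13 and Krt14 by 0.02, so the basal pair did not share the difference.

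The partners Krt1 and Krt10 were almost equal in this comparison: the Krt1 difference minus that of Krt10 was 0.10. The same held for CKO EtOH over control EtOH, where Krt1 differed by 0.59 (205 in CKO EtOH and 136 in control EtOH) and Krt10 by 0.65 (328 in CKO EtOH and 209 in control EtOH), a gap of -0.06. That last comparison sets 2 ethanol cultures of different genotype and different mice beside each other. Over all genes it was the quietest: 0.0536% were at least 2-fold higher and 0% at least 2-fold lower, and the 95th percentile of the size was 0.42. The Krt1 and Krt10 differences were larger than this, and 1.29% and 0.697% of the measured genes differed by at least as much. The size of the Krt10 difference between CKO 4OHT and CKO EtOH (-0.40) was thus smaller than the one between the ethanol cultures (0.65).

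The difference of the 4OHT differences (CKO minus control) uses all 4 arrays. It was -4.09 for Krt1, which puts Krt1 among the 4 lowest of the measured genes, and -1.15 for Krt10, with 160 genes, Krt10 included, at least that far down. These 2 keratins were past 2-fold on this scale and lower, beside 2.9% of all measured genes, and none of the 5 was higher, beside 2.75%. Krt5 was at 0.07, Krt14 at -0.06 and Krt15 at 0.03. In Krt10, more of this value comes from the control cells (0.75) than from the CKO cells (-0.40).

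The sequences just upstream of Krt5 and Krt10 are shown because these 2 genes stand for the flat basal pair and for the partner that did not follow Krt1. They are the 250 bases before an annotated start in RefSeq (build GRCm38.p6, both on the minus strand and written 5′ to 3′ along the gene), at chr15:101712906-101713155 for Krt5 and chr11:99389365-99389614 for Krt10. The Krt5 window ends at the outer edge of the gene's span, and the Krt10 window lies 8085 bases inside its own. Capitals mark the letters of 5 motifs searched on both strands.
Krt5: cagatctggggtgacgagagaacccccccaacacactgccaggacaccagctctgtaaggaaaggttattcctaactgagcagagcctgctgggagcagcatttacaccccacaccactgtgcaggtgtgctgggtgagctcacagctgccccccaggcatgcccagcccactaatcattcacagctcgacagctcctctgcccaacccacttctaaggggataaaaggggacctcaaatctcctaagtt
Krt10: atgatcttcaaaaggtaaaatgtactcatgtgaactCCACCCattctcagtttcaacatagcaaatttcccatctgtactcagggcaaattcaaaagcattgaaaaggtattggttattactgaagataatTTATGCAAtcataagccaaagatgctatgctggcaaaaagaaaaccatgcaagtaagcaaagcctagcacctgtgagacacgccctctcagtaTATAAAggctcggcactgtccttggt

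The motifs were TATAAA (the TATA box), AGNGAAAG (a core of Blimp-1 sites), TGANTCA (AP-1), TTGCNNAA (part of a C/EBP site) and CCACCC (bound by KLF factors). The Krt10 window held TATAAA at -26 to -21 from the start, TTGCNNAA on the opposite strand at -119 to -112, and CCACCC at -214 to -209. The Krt5 window held none of the 5. Of 32851 windows of this length in the table, 12.4% held TATAAA, 9.56% TTGCNNAA, 28.1% CCACCC, 7.30% AGNGAAAG and 6.75% TGANTCA. The Krt14 entry, with CCACCC at -99 to -94, starts 1480 bases inside that gene and is not shown. Matches are letters in a window and say nothing of binding. No window of Krt1 or Krt15 is shown.

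In the reference annotation Krt1 and Krt5 lie in the keratin cluster of chromosome 15, and Krt10, Krt14 and Krt15 in that of chromosome 11. The nearest genes on each side of Krt1 are Krt2, a keratin of the upper epidermal layers, and Krt77, and they were dim on all arrays (3.85 to 4.23 for Krt2 and 8.53 to 10.97 for Krt77). The neighbours of Krt10 on the array, Krt27, Krt12 and Krt20, were dim too (4.87 to 6.53 in all). The neighbours of Krt5 and Krt14 included bright keratins of activated epidermis. Krt6a was 5316 in CKO 4OHT, 4883 in CKO EtOH, 4935 in control 4OHT and 4637 in control EtOH, and Krt17 was between 3118 and 3403.

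Krt1 was also set beside the other keratins of the array. Of 35 further keratin genes, 13 reached the level filter. For CKO 4OHT over CKO EtOH, 3 of the 13 were higher past 2-fold (Krt18, Krt23 and Krt75), 1 was lower (Krt8), and the median was 0.12, against 0.01 over all measured genes. Krt18 passed the filter on level through CKO 4OHT only, so the value that admitted it is also the one counted as higher. For CKO 4OHT over control 4OHT, 1 was higher (Krt18), none was lower and the median was -0.16. The 13 ran between -1.04 and 1.58 in the first comparison, where Krt1 was at -3.23.

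Krt8 and Krt18 are the partners of simple epithelia. Krt8 was 43.8 in CKO 4OHT, 90.2 in CKO EtOH, 77.8 in control 4OHT and 73.4 in control EtOH, and its log2 difference to CKO EtOH was between -0.94 and -1.11 by its 3 probe sets. Krt18 was 30.2 in CKO 4OHT, 10.7 in CKO EtOH, 10.9 in control 4OHT and 13.5 in control EtOH, and the last 3 lie under the median of the table, so the size of its difference is imprecise. With the drug in control cells, 2 of the 13 were higher past 2-fold, Krt23 (1.69) and Krt80 (1.25), none was lower and the median was 0.42. In CKO cells these 2 differed by 1.58 and 0.55 with the drug. Krt75 differed by 1.05 in CKO cells and by 0.98 in control cells. The keratins Krt6b, Krt7, Krt16, Krt81, Krt83 and Krt88 were past 2-fold in none of the 4 comparisons.

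**Figure D3:**
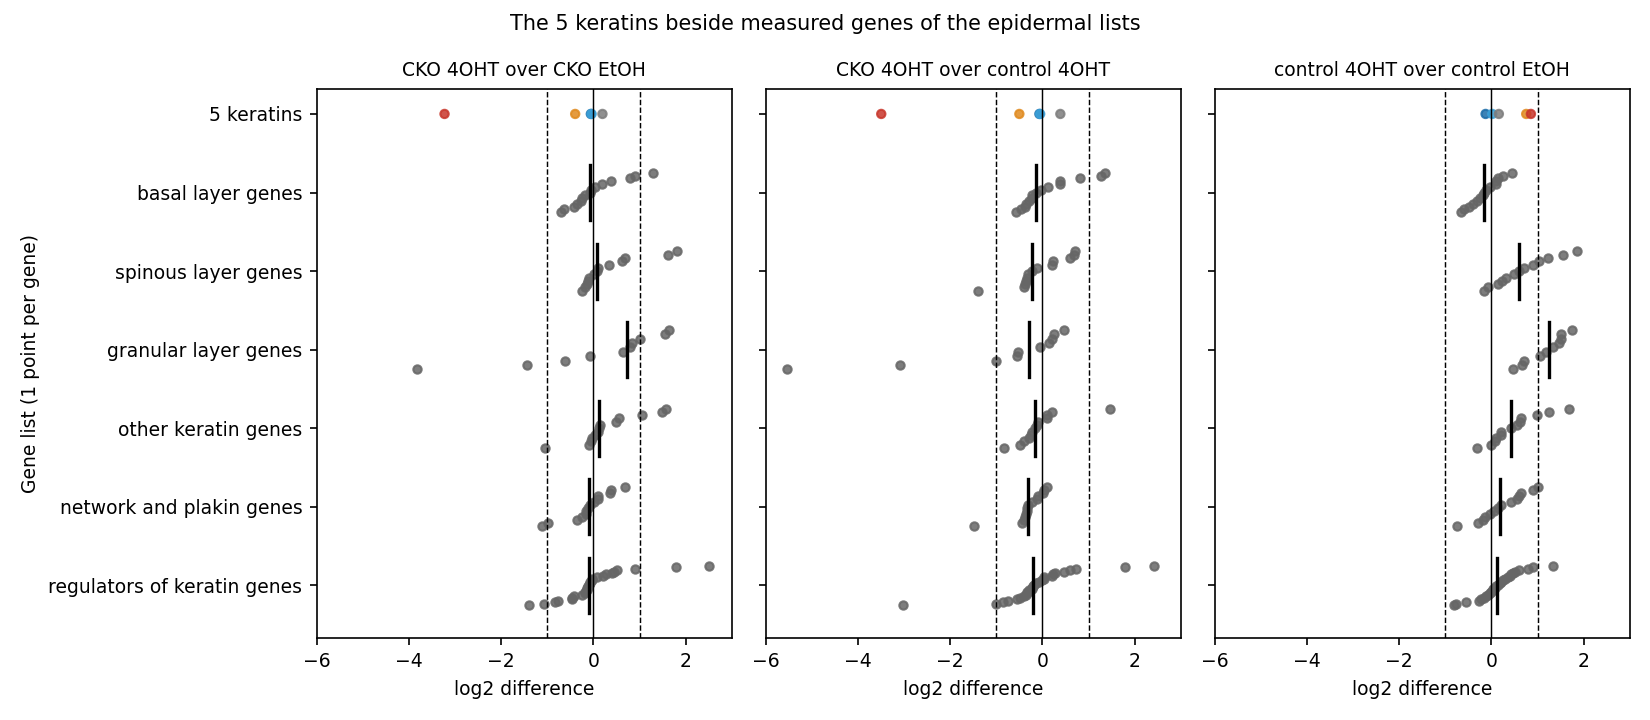
Log2 differences (horizontal axis) of the 5 keratins (Krt1 red, Krt10 orange, Krt5 and Krt14 blue, Krt15 grey) and of the measured genes of 6 lists, 1 point per gene, in 3 comparisons. Black bars are list medians and dashed lines mark 2-fold; the red point lies far left of the other 4 keratins for both comparisons of CKO 4OHT, and among all plotted genes Rptn (-3.83 and -5.54) lies further left.

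Lists of genes of the same layers gave the setting of these values. The medians over all measured genes were 0.01 for both comparisons of CKO 4OHT and -0.04 for control 4OHT over control EtOH. Of 15 measured basal layer genes, none was lower past 2-fold for CKO 4OHT over CKO EtOH and 1 was higher, Itga3, an integrin chain (1.30 to 1.37 by its 3 probe sets). The median was -0.09. Against control 4OHT, Itga3 and the hyaluronan receptor Cd44 (1.27) were higher and the median was -0.13. Over CKO EtOH, Cd44 differed by 0.91 by its brightest probe set. A second Cd44 probe set was past 2-fold in both comparisons (1.62 over CKO EtOH and 1.56 over control 4OHT). Trp63, the master regulator of the basal state, was 320 in CKO 4OHT, 364 in CKO EtOH, 407 in control 4OHT and 383 in control EtOH.

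Of 13 measured spinous genes, 2 were higher past 2-fold for CKO 4OHT over CKO EtOH (Trex2 at 1.80, an exonuclease of differentiating keratinocytes, and Ly6g6c at 1.61), none was lower, and the median was 0.08. Against control 4OHT, Dsc1, a cadherin of suprabasal desmosomes, was lower (-1.41), none was higher and the median was -0.22. Dsc1 was 25.2 in CKO 4OHT, 28.6 in CKO EtOH, 66.8 in control 4OHT and 18.5 in control EtOH, and its difference of the 4OHT differences was -2.04. Krtdap, a secreted protein of the suprabasal layers, was 1354 in CKO 4OHT, 1065 in CKO EtOH, 1580 in control 4OHT and 770 in control EtOH. Of the spinous list, 4 genes were higher past 2-fold for control 4OHT over control EtOH and none was lower (median 0.59). They were Dsc1 (1.86), Ly6g6c (1.56), Trex2 (1.22) and Krtdap (1.04). Trex2 and Ly6g6c were thus higher past 2-fold with the drug in cells with and without CreER.

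Genes of the granular layer were split. For CKO 4OHT over CKO EtOH, 3 of 10 measured were higher past 2-fold (Tgm1, Klk7 and Alox12b, which act in crosslinking, desquamation and lipid processing), and 2 were lower, Hrnr (-1.43) and Rptn (-3.83), both cornified envelope proteins of the S100-fused type. The median was 0.72. Alox12b was 54.3 in CKO 4OHT, 17.4 in CKO EtOH, 39.4 in control 4OHT and 15.6 in control EtOH. It passed the filter on level through the 4OHT arrays only. The values that admitted it are thus also those counted as higher, here and with the drug in control cells. Rptn had 3.82 in CKO 4OHT, 54.5 in CKO EtOH, 178 in control 4OHT and 53.4 in control EtOH. It was the 1 measured gene further down than Krt1 here, but 3.82 is close to the lowest value of the array (2.66), so its size and rank are imprecise. Its 2 other probe sets were dim on all arrays (5.61 to 7.49). Lor, the main cornified envelope protein, was 104 in CKO 4OHT, 110 in CKO EtOH, 151 in control 4OHT and 110 in control EtOH. A second Lor probe set read 53.8 in CKO 4OHT, 60.4 in CKO EtOH, 90.8 in control 4OHT and 43.8 in control EtOH. By that probe set Lor was past 2-fold with the drug in control cells (1.05, against 0.47 by the brightest). A further Lor probe set was dim on all arrays (6.60 to 6.67). Against control 4OHT, 3 were lower (Hrnr, Rptn and Tgm3) and none was higher (median -0.29). With the drug in control cells, 7 of the 10 were higher (Rptn, Hrnr, Tgm1, Cdsn, Klk7, Asprv1 and Alox12b, from 1.05 to 1.74) and none was lower, and the median was 1.25.

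Of 14 measured genes of the keratin network and its plakin and desmosome anchors, Eppk1, the keratin-binding plakin epiplakin, was lower in CKO 4OHT past 2-fold: 130 in CKO 4OHT, 281 in CKO EtOH, 361 in control 4OHT and 369 in control EtOH. None was higher there. The plakin gene Ppl passed 2-fold with the drug in control cells alone, at 281 in control 4OHT and 139 in control EtOH. The list median was -0.09 beside CKO EtOH and -0.32 beside control 4OHT. Dsp, the plakin that ties keratin filaments to desmosomes, was 1222 in CKO 4OHT, 1205 in CKO EtOH, 1337 in control 4OHT and 1281 in control EtOH. A dimmer Dsp probe set read 127 in CKO 4OHT, 99.0 in CKO EtOH, 148 in control 4OHT and 68.2 in control EtOH. By that probe set Dsp was past 2-fold with the drug in control cells (1.12, against 0.06 by the brightest). A further Dsp probe set differed by -0.0095 there.

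A list of possible regulators of epidermal keratin genes, Prdm1 among them, had 28 measured genes. Of these, 2 were higher past 2-fold in CKO 4OHT in both comparisons, Fos and Fosl1, subunits of AP-1. Fos was 172 in CKO 4OHT, 30.4 in CKO EtOH, 32.3 in control 4OHT and 27.1 in control EtOH. Fosl1 was 59.4 in CKO 4OHT, 17.1 in CKO EtOH, 17.3 in control 4OHT and 17.5 in control EtOH, so it passed the filter on level through CKO 4OHT only. Prdm1 and Gata3 were lower in both, and Gata3, a zinc finger factor of epidermal differentiation, was 39.1 in CKO 4OHT, 82.1 in CKO EtOH, 78.8 in control 4OHT and 92.5 in control EtOH. The Prdm1 values in CKO 4OHT (6.43) and CKO EtOH (17.0) both lie under the median of the table, so the size of that difference is imprecise. The list medians were -0.11 and -0.20. Klf4 was 566 in CKO 4OHT, 429 in CKO EtOH, 487 in control 4OHT and 362 in control EtOH, and Notch1 was 702 in CKO 4OHT, 721 in CKO EtOH, 509 in control 4OHT and 863 in control EtOH. A second Notch1 probe set read 140 in CKO 4OHT, 145 in CKO EtOH, 134 in control 4OHT and 146 in control EtOH. With the drug in control cells it differed by -0.13, against -0.76 by the brightest.

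**Figure D4:**
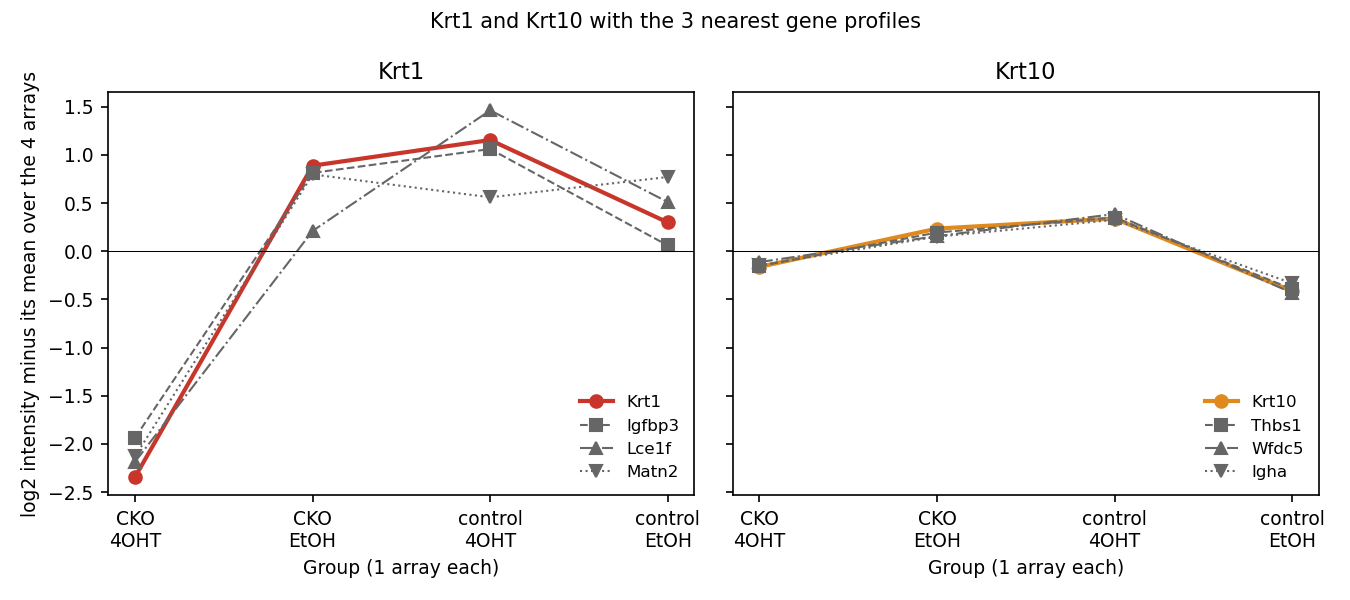
Log2 intensity of Krt1 and Krt10 and of the 3 measured genes nearest to each, minus each gene's own mean over the 4 arrays (vertical axis), by group with 1 array each. Krt1 and Igfbp3 both drop in CKO 4OHT, while Krt10 and its neighbours keep within 1 log2 unit.

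The genes with the most similar profiles were found by the Euclidean distance between log2 profiles over the 4 arrays, each centred on its mean. For Krt1 they were Igfbp3, which binds insulin-like growth factors (distance 0.49), Lce1f, a late cornified envelope protein (0.79), and Matn2, an extracellular matrix protein (0.79). Lce1f (13.7) and Matn2 (6.97) lie under the median of the table in CKO 4OHT, so their distances are imprecise. With the drug in control cells Matn2 differed by -0.21 and Krt1 by 0.86. Igfbp3 was the single one of 7457 genes within 0.5 of Krt1. It had 99.9 in CKO 4OHT, 672 in CKO EtOH, 797 in control 4OHT and 399 in control EtOH. For Krt10, 907 genes lay within 0.5, and the nearest were Thbs1, Wfdc5 and Igha (0.05 to 0.12). Wfdc5 and Igha lie under the median of the table in CKO 4OHT (19.7 and 18.0) and in control EtOH (15.8 for each). Krt5 and Krt14 were so flat that 5969 and 6065 genes lay within 0.5, with Fkbp9 and Mypop as the nearest. The 4 points per profile make these a description only.

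The cells had the marker pattern of keratinocytes. Of 9 keratinocyte markers 8 reached the level filter, all but Krt15, and 5 of the 9 are the keratins described above. Of the rest, Perp, a desmosomal protein, was 2194 in CKO 4OHT, 2377 in CKO EtOH, 2681 in control 4OHT and 2142 in control EtOH, and Cdh1, which encodes E-cadherin, was 238 in CKO 4OHT, 272 in CKO EtOH, 350 in control 4OHT and 245 in control EtOH. Among the markers of fibroblasts (7 on the array), melanocytes (6), leukocytes (7) and endothelial cells (5), 1, 3, 1 and 0 reached the filter, and their highest values on any array were 26.1, 40.3, 28.9 and 19.4. Of 5 Merkel cell markers only Krt8 and Krt18 did so, and of 4 sebocyte markers only Scd1, a lipid desaturase gene that keratinocytes also express (287 in CKO 4OHT, 365 in CKO EtOH, 441 in control 4OHT and 362 in control EtOH). In these bulk cultures, fewer cells that make a keratin and less of its RNA per cell cannot be told apart.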

How the data were processed

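The authors deposited a linear intensity for each probe set on each array, made with RMA (background correction, normalization between arrays, summary of probes), per the submitters' processing notes that give no version. Because RMA makes the distributions of arrays alike, a shift of most transcripts would be lost. Values ran from 2.66 to 7167 over 22626 probe sets, of which 20380 named 1 gene, 691 several and 1555 none. Of those with 1 gene, 20351 matched the current gene table by Entrez identifier and 0 changed symbol.

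The log2 of the intensity was taken with no pseudocount or further normalization (Python 3.11.15, pandas 2.3.3, numpy 2.4.6). A gene was read by its brightest probe set that names it alone, and was measured if its highest value reached the table median. A difference counted at 2-fold (1 on the log2 scale). With 1 array per group no test was run. The counting was run on simulated data with small noise and planted shifts beyond the threshold. That run checks the counting steps only and gives no error rate for the calls made here. The table has no detection calls.

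The 5 keratins, the gene lists and the motifs were chosen with earlier results of these data known. The rule for genes to name took the 5 keratins, Prdm1, measured keratins, list members past 2-fold in a comparison with 4OHT, the 3 nearest profiles and measured markers; some of the profiles and markers stand in counts only. Krt2, Krt77, Krt27, Krt12, Krt20, Trp63, Lor, Dsp, Klf4, Notch1 and Hopx were named after their values were seen. Alternatives varied the fold, the level filter, the probe set rule, the normalization, an added offset and the arrays compared.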

Additional observations from a re-analysis of the deposited data

Results flagged for a closer look

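Each difference below had opposite signs in the 2 genotypes: 4OHT over ethanol in CKO cells went one way and 4OHT over ethanol in control cells the other. Each sign rests on 1 array per group and the difference was not tested. Krt1 had the furthest value of the 5 keratins, -4.09 (-3.23 in CKO cells and 0.86 in control cells), and Krt10 had -1.15 (-0.40 in CKO cells and 0.75 in control cells). Krt14 gave -0.058 by its brightest probe set, which is near 0 in both genotypes, and -0.80 by the dim probe set 1455573_at.

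Among the other named genes, this value was -5.57 for Rptn, -3.75 for Igfbp3, -3.35 for Lce1f, -2.94 for Hrnr and -2.74 for Prdm1. It was -2.04 for Dsc1, -1.76 for Tbx1, -1.31 for Tgm3, -1.13 for Krt8, -0.73 for Krt88 and -0.58 for Krt6b. It was 1.89 for Itga3, 1.81 for Fosl1, 1.80 for Krt18 and 1.38 for Cd44. Not every named gene with opposite signs is listed. By their brightest probe sets, Thbs1 (-1.09), Lor (-0.54) and Trp63 (-0.27) also had them. Several of these signs are not shared by another probe set. In control cells Itga3 was negative by 2 probe sets (-0.59 and -0.19) and positive by 1 (0.25). A second probe set had the same sign in both genotypes for Cd44 (1.62 in CKO cells and 0.04 in control cells) and for Fosl1 (1.61 in CKO cells and 0.19 in control cells), and 1 of 3 for Krt8 (-0.94 in CKO cells and -0.10 in control cells). The control values of Fosl1 (17.3 in control 4OHT and 17.5 in control EtOH) and Krt18 (10.9 in control 4OHT and 13.5 in control EtOH) lie under the median of the table, as do the 2 further Rptn probe sets. So do Prdm1 (6.43), Rptn (3.82), Hrnr (10.5), Tgm3 (19.5) and Lce1f (13.7) in CKO 4OHT. In CKO EtOH, Prdm1 (17.0), Fosl1 (17.1) and Krt18 (10.7) lie under it. In control EtOH, Dsc1 (18.5) and Krt88 (19.3) do. Differences that use these values are imprecise in size.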

How the results depend on the processing

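These limits apply: 1 array per group gives no error, and levels near the table median are not resolved from background. Of 220 values of the 5 keratins under the alternatives, 209 kept their sign and their side of the threshold. Many of these values could not move, because a fold threshold or a level filter leaves a difference as it is. A probe set rule does the same for a gene with 1 probe set. For Krt1 only the normalizations and the added offset could move the value. Krt1 stayed between -3.24 and -2.55 for CKO 4OHT over CKO EtOH. For CKO 4OHT over control 4OHT it stayed between -3.51 and -2.79. No called value changed sign. The bright Krt14 differences changed sign near 0 when probe sets of the _x_at and similar kinds were left out or quantiles were normalized (for CKO 4OHT over control 4OHT, 0.07 with quantiles). At a 1.5-fold threshold 2 keratins counted as higher for control 4OHT over control EtOH, against 0 at 2-fold (3.95% of all measured genes did so at 1.5-fold), and 2 for CKO EtOH over control EtOH, against 0 (0.590%). The count lower in the difference of the 4OHT differences became 1, against 2, at 3-fold (0.952% of all measured genes). It was also 1 without probe sets ending in _s_at, _x_at or _a_at (2.94%), a rule that removes the single one of Krt10. Leaving out 1 of the other arrays cannot end the Krt1 call, and it gave 1 keratin apart below and 0 above in CKO 4OHT each time. Counts over all genes moved more. Genes lower in CKO 4OHT than in CKO EtOH numbered 139 (1.86%), 408 (5.47%) at 1.5-fold, 30 (0.402%) at 3-fold and 60 (0.804%) with 16 units added. With the 75th percentile filter they were 82, or 1.94% of the 4218 genes that it kept. Against control 4OHT they were 167 (2.24%), 451 (6.04%), 50 (0.670%), 88 (1.18%) and 107 (2.54%) in that order.

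List medians past the threshold in use changed side as follows. At 1.5-fold the granular median for CKO 4OHT over CKO EtOH (0.72) and the spinous median for control 4OHT over control EtOH (0.59) passed, and at 3-fold the granular median with the drug in control cells (1.25) did not. Without _s_at, _x_at and _a_at probe sets the basal median became 0.18 against CKO EtOH and 0.34 against control 4OHT, and the network median -0.0095 with the drug in control cells. The hair follicle median, near 0, changed sign: against CKO EtOH to -0.068 with no level filter and -0.012 with all probe sets averaged, against control 4OHT to -0.0023, -0.0062, -0.12 and -0.11 (no filter, 75th percentile filter, probe sets averaged, suffixes left out), and with the drug in control cells to 0.12 (75th percentile) and 0.020 (quantiles). The cause was not tested. No paired analysis was possible because the labels give no replicate numbers and each group has 1 array.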
